A study of Mus musculus with 6 samples.

Results

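The Foxo transcription factors and the PI3K pathway genes that are known to feed back on them were compared between activated T cells with and without Foxo1. The 9 genes were Foxo1, Foxo3 and Foxo4, the receptor Igf1r, the adaptor Irs2, the PI3K brakes Pik3ip1 and Inpp4b, and the sestrins Sesn1 and Sesn3. They were taken by symbol from the 13564 genes of the authors' normalized table, and all 9 were also among the 55487 genes of the count files and among the 13691 genes with enough reads to be tested.

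The 2 genotypes of C57BL/6 mice had 3 libraries each. In Foxo1TKO mice, a Cre recombinase driven by CD4 regulatory sequences deletes floxed Foxo1 alleles from the stage at which thymocytes carry both CD4 and CD8, so that CD4 and CD8 T cells both lack the gene. Foxo1Ctrl mice carry the same floxed alleles without the Cre, so the effects of Cre itself and of the deletion cannot be told apart. Both were young adult mice with a GFP reporter in Foxp3. Naive CD4 T cells were sorted from lymph nodes, and 50000 of them (the labels' number, while the methods give a larger one) were cultured for 4 days with 0.1 µg/ml of anti-CD3 antibody and 250000 splenocytes from CD3eKO mice, which have no T cells. Neither source says that the T cells were purified again before RNA extraction, and the splenocytes carry an intact Foxo1 gene. All libraries were taken after the culture, so differences already present at sorting and differences that arose in culture cannot be told apart. The labels do not say that the 3 libraries of a genotype came from separate mice, so the p-values measure the spread between these libraries only. Expected counts summed to between 14783890 and 19675447 per library.

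As background, insulin, IGF, the T cell receptor and its costimulators activate PI3K, which makes the membrane lipids that recruit the kinase AKT. AKT phosphorylates the FOXO proteins, which then leave the nucleus, so that strong PI3K signaling silences FOXO-dependent transcription. When AKT is quiet, nuclear FOXO factors keep T cells in a resting, recirculating state and are known in several tissues to raise transcription of receptors, adaptors and brakes of the same pathway. Most of the 9 genes are known in one tissue or another as FOXO targets.

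FOXO proteins bind the forkhead core GTAAACA and the related insulin response core CAAAACA. The RefSeq promoter windows of GRCm38.p6, 250 bases before to 50 bases after a transcription start, were searched for both cores on both strands. Of 32851 windows over all genes, 3.65% held GTAAACA and 6.28% held CAAAACA, and no single match can be of both cores. Of the 9 windows found for 8 of the genes (2 of them for Sesn1), 1 held the first core and 1 the second. Both matches are shown here with the core in capitals, because they are the 2 places in these windows where the letters occur, and both read as the core on the opposite strand. The Irs2 stretch lies at chr8:11008944-11009026 on the minus strand and its core begins 37 bases before the start. The Sesn1 stretch lies at chr10:41810585-41810614 on the plus strand and its core begins at base 23 of the transcript. Both starts are those of RefSeq, and they differ from the starts of the GENCODE M21 gene positions given below.
Irs2: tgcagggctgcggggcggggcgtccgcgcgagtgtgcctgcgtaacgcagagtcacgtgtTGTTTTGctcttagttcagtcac
Sesn1: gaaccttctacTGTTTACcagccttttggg
A match in a window describes its letters only.

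Replicates of a genotype differed by more than sampling noise, so none was the same library deposited again. A chi-square per degree of freedom over the tested genes, which counting noise alone would hold near 1, was 13.5 between Foxo1Ctrl replicates 1 and 3 but 89.8 and 87.4 between each of them and replicate 2. It was 16.4 between Foxo1TKO replicates 2 and 3 and 50.5 and 83.1 between each of them and replicate 1. Foxo1Ctrl replicate 2 and Foxo1TKO replicate 1 therefore stood apart, and values without them are given where they matter. T cell markers dominated every library, with a summed level of 11616 to 14499 TPM (an RSEM level scaled for library size and transcript length) over 11 genes. Of these 11, 2 were called lower in Foxo1TKO (Cd28 and Trbc2) and none higher. The 2 CD8 T cell markers summed to 4.27 to 6.48 TPM in Foxo1TKO and 6.87 to 8.29 TPM in Foxo1Ctrl, nearly all of it Cd8b1, while Cd8a was at 0.67 TPM or less in every library. The 2 regulatory T cell markers summed to 2.83 to 4.13 TPM in Foxo1TKO and 2.39 to 5.18 TPM in Foxo1Ctrl, most of it Ikzf4, while Foxp3 was at 0.61 TPM or less. Neither list held a called gene.

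Of the 9 genes, 6 were lower in Foxo1TKO cells and 0 were higher, where a call meant a difference of more than 1.5-fold that passed 0.05 in edgeR's quasi-likelihood test, its p adjusted by the Benjamini-Hochberg method over the 13691 tested genes. In the same test 11.8% of all tested genes were called lower and 11.1% higher. The called genes were Foxo1, Igf1r, Irs2, Pik3ip1, Inpp4b and Sesn1. The other 3 (Foxo3, Foxo4 and Sesn3) had negative log2 fold changes that were not called. The TMM-normalized counts of the genotypes did not overlap for 8 genes, all lower in Foxo1TKO, against 21.2% of all tested genes. The median log2 fold change of the 9 genes was −1.78, beside 0.01 over all tested genes. Foxo1, the gene deleted by design, is included in the 6, in the 8 and in this median.

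**Figure D1:**
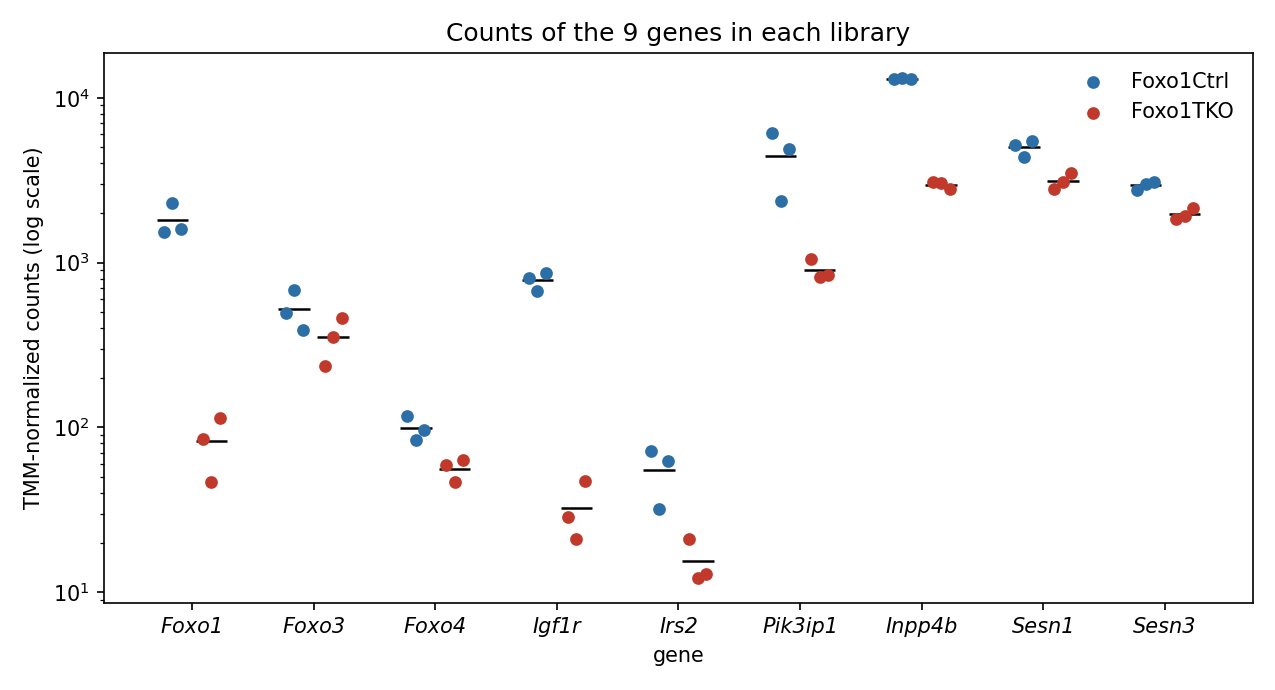
TMM-normalized counts (log axis) of the 9 genes in each of the 6 libraries. Blue points are Foxo1Ctrl, red points are Foxo1TKO and black lines are the means of 3 libraries. Only Foxo3 has red and blue points at overlapping heights, and the gaps are widest for Foxo1 and Igf1r.

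Foxo1, the targeted gene, was lower in every library labelled Foxo1TKO. Foxo1 (ENSMUSG00000044167, chr3:52268336-52353221 on GRCm38) had 85.4, 46.5 and 115 normalized counts in Foxo1TKO replicates 1, 2 and 3, and 1529, 2285 and 1598 in Foxo1Ctrl replicates 1, 2 and 3. The genotypes were far apart, and the highest Foxo1TKO library was replicate 3. Foxo1 fell by 4.45 on the log2 scale (standard error 0.36, edgeR adjusted p = 0.000195), a 21.8-fold difference with a 95% interval of 12.4 to 39.1. The mean count in Foxo1TKO was 4.56% of that in Foxo1Ctrl. Without Foxo1Ctrl replicate 2, which had the most Foxo1, the log2 fold change was −4.23. The sources used here do not say which exons are deleted, so reads of undeleted exons and reads of cells with an intact gene cannot be told apart in this remainder. In bulk samples, fewer cells of a type and less RNA per cell cannot be told apart either. The antisense gene Gm20402 shares 674 exonic bases with Foxo1 and was listed at 0 in all 6 libraries.

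The added splenocytes are one place where an intact Foxo1 gene could be read. Of 8 B cell markers, 4 of the 7 tested were called lower in Foxo1TKO, none of the 8 was at 0 in all libraries, and their sum ran from 6.93 to 10.1 TPM in Foxo1TKO and from 22.5 to 29.6 TPM in Foxo1Ctrl. Of 4 plasma cell markers, 2 of the 3 tested were called lower (Jchain and Mzb1), none was at 0 throughout, and the sum was 110 to 159 TPM against 178 to 239 TPM. A large part of that sum was Xbp1, which was not called, with 69.8 to 137 TPM in Foxo1TKO and 58.0 to 140 TPM in Foxo1Ctrl. Of 8 macrophage markers, 1 was tested (Cd68, not called), C1qa was at 0 in all libraries, and the sum was 4.43 to 5.84 TPM in Foxo1TKO and 2.41 to 3.40 TPM in Foxo1Ctrl. Of 6 dendritic cell markers, the one called higher of 3 tested was Itgax, none was at 0 throughout, and the sum was 10 to 10.3 TPM against 2.01 to 3.75 TPM. Itgax alone had 6.59 to 7.68 TPM in Foxo1TKO and 0 to 0.43 TPM in Foxo1Ctrl, while Xcr1 and Zbtb46 were tested and not called. Erythroid markers summed to 33.9 to 64.8 TPM against 39.8 to 69.3 TPM, NK cell markers to 0.57 to 2.18 TPM against 1.35 to 2.63 TPM and neutrophil markers to 0 to 5.16 TPM against 0 to 0.31 TPM, with Klra8 of the NK cell list at 0 in all libraries and no gene of these lists called. Of 7 proliferation genes, 4 were called higher in Foxo1TKO (Top2a, Cdk1, Mcm5 and Pcna), with a sum of 378 to 507 TPM against 221 to 279 TPM. Most of that sum was Pcna, with 240 to 276 TPM in Foxo1TKO and 120 to 162 TPM in Foxo1Ctrl. Mki67, Ccnb1 and Mcm2 were not called (log2 fold changes −0.12, 0.14 and 1.47). By dye dilution in such cultures, the paper found markedly reduced proliferation of Foxo1-deficient cells. The part of these marker shifts in the results on the 9 genes was not tested.

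Foxo3 (ENSMUSG00000048756, chr10:42181841-42276755) encodes the second main FOXO factor of T cells. Its normalized counts were 237, 356 and 464 in Foxo1TKO and 496, 682 and 392.4 in Foxo1Ctrl. The genotypes overlapped, as Foxo1TKO replicate 3 lay above Foxo1Ctrl replicate 3. The log2 fold change was −0.57 (95% interval −1.26 to 0.12, edgeR adjusted p = 0.211). It was −0.32 without Foxo1Ctrl replicate 2 and −0.37 without Foxo1TKO replicate 1, the 2 libraries that stood apart.

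Foxo4 (ENSMUSG00000042903, chrX:101254528-101260873), a FOXO factor of lower abundance here, had 59.2, 46.5 and 63.3 normalized counts in Foxo1TKO and 118, 83.5 and 95.9 in Foxo1Ctrl. No Foxo1TKO library reached the lowest Foxo1Ctrl library. The log2 fold change of −0.81 (95% interval −1.45 to −0.18) missed the threshold in edgeR (adjusted p = 0.0664), while the Wald test of DESeq2 on the same counts put it past the threshold (adjusted p = 0.0339). In edgeR the adjusted p was above 0.05 whichever library was left out (0.0608 to 0.223) and with no filter on low counts (0.123).

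Per unit of transcript length, Foxo1 was the leading Foxo transcript in Foxo1Ctrl cells. Its level was 12.3, 15.2 and 12.8 TPM there, beside 5.13, 5.78 and 4.25 TPM for Foxo3 and 3.18, 1.93 and 2.62 TPM for Foxo4. In Foxo1TKO cells the levels were 0.73, 0.36 and 0.83 TPM for Foxo1, 2.97, 3.77 and 4.37 TPM for Foxo3 and 1.64, 1.41 and 1.3 TPM for Foxo4. The order of Foxo1 and Foxo3 was thus turned around in every Foxo1TKO library. Foxo6, the remaining family member, was listed at 0 in all 6 libraries.

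The summed level of the family was 21.1 ± 1.70 TPM (SD, n = 3) in Foxo1Ctrl and 5.79 ± 0.62 TPM in Foxo1TKO. Foxo1 made up 63.7 ± 3.56% of that sum in Foxo1Ctrl and 10.98 ± 3.91% in Foxo1TKO, where Foxo3 held 63.6 ± 6.95%. Foxo3 and Foxo4 together had 7.63 ± 0.72 TPM in Foxo1Ctrl and 5.15 ± 0.53 TPM in Foxo1TKO, so the sum of the other family members was not higher where Foxo1 was missing. The highest Foxo1TKO library reached 6.5 TPM in all and the lowest Foxo1Ctrl library 19.6 TPM.

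**Figure D2:**
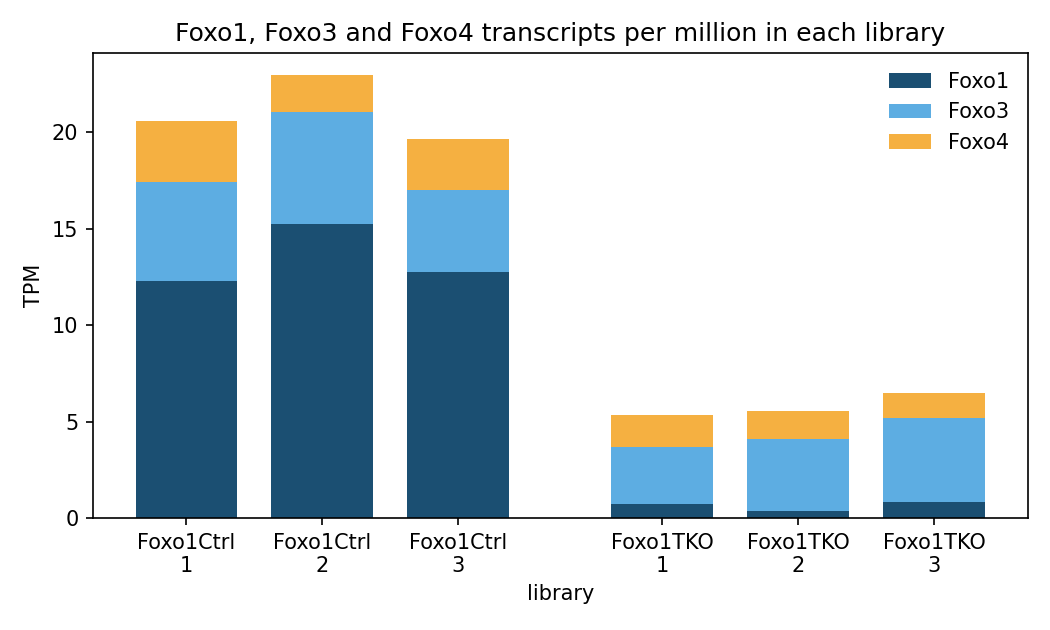
TPM of Foxo1 (dark blue), Foxo3 (light blue) and Foxo4 (orange), stacked for each of the 6 libraries. The 3 Foxo1Ctrl bars reach 19.6 to 23.0 TPM and are mostly Foxo1, and the 3 Foxo1TKO bars reach 5.34 to 6.5 TPM and are mostly Foxo3.

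At the top of the pathway stand the receptor Igf1r and the adaptor Irs2. Igf1r (ENSMUSG00000005533, chr7:67952827-68233668) encodes the receptor tyrosine kinase for insulin-like growth factors, which starts PI3K signaling. It had 28.7, 21.1 and 47.2 normalized counts in Foxo1TKO and 806, 672 and 868 in Foxo1Ctrl. The highest Foxo1TKO library was still far under the lowest Foxo1Ctrl library. Igf1r fell by 4.57 on the log2 scale (standard error 0.32, edgeR adjusted p = 0.000122), and only 0.46% of the tested genes had a lower log2 fold change. Its difference in counts was thus close in size to that of the deleted gene, with a 95% interval of −5.35 to −3.87 beside −5.29 to −3.63 for Foxo1.

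The size of the Igf1r difference depended on the length assigned to the gene. RSEM gives a gene the mean length of its transcripts, weighted by their estimated abundance, and GENCODE M21 lists 6 Igf1r transcripts of 733 to 11409 bases, 1 of them protein coding and 5 with a retained intron. The assigned length was 6542, 2919 and 2762 bases in Foxo1TKO and 7183, 6936 and 6174 bases in Foxo1Ctrl. The few Igf1r reads of Foxo1TKO replicates 2 and 3 were thus assigned to shorter transcripts than those of the other 4 libraries. Per length, the levels were 0.33, 0.50 and 1.12 TPM in Foxo1TKO and 7.85, 5.63 and 9.82 TPM in Foxo1Ctrl, without overlap. With the effective lengths as offsets in edgeR, Igf1r fell by 3.63 (standard error 0.48, edgeR adjusted p = 0.00151), which is 12.4-fold in place of 23.7-fold.

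Irs2 (ENSMUSG00000038894, chr8:10984681-11008458) encodes an adaptor that links insulin and IGF receptors to PI3K. It was the most weakly expressed of the 9 genes, with 21.1, 12.3 and 12.9 normalized counts in Foxo1TKO and 71.5, 32.0 and 63.0 in Foxo1Ctrl. The genotypes did not overlap, and Foxo1Ctrl replicate 2 was the lowest of its group. Irs2 fell by 1.78 on the log2 scale (standard error 0.44, edgeR adjusted p = 0.0188), with a wide 95% interval of −2.85 to −0.83. The call was lost without Foxo1TKO replicate 2 (adjusted p = 0.0803) or 3 (0.0565) and without Foxo1Ctrl replicate 1 (0.0746) or 3 (0.0635). The gene has a single annotated transcript, so its length did not vary, and 9530052E02Rik, which shares 162 exonic bases on the other strand, had at most 2 counts in any library.

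Pik3ip1 and Inpp4b restrain the pathway. Pik3ip1 (ENSMUSG00000034614, chr11:3330401-3342971) encodes a membrane protein that binds PI3K and inhibits it in T cells. Its normalized counts were 1048, 815 and 841 in Foxo1TKO and 6123, 2365 and 4906.5 in Foxo1Ctrl. The Foxo1TKO libraries lay close together, whereas Foxo1Ctrl replicate 2 had less than replicates 1 and 3. Pik3ip1 fell by 2.31 on the log2 scale (standard error 0.33, edgeR adjusted p = 0.00241), and without Foxo1Ctrl replicate 2 by 2.59 (standard error 0.18, adjusted p = 0.000269). Gm12592, which shares 91 exonic bases on the other strand, had 1.11 to 30.3 expected counts per library.

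Inpp4b (ENSMUSG00000037940, chr8:81342556-82127914) encodes a phosphatase that degrades a lipid product of PI3K and so limits AKT. It had 3070.5, 3030.5 and 2783 normalized counts in Foxo1TKO and 12993, 13189 and 13033 in Foxo1Ctrl. The libraries of a genotype were nearly level, and the highest of Foxo1Ctrl exceeded the lowest by a factor of 1.02. Inpp4b fell by 2.14 on the log2 scale (standard error 0.13, edgeR adjusted p = 7.7e-05), a 4.41-fold difference with a 95% interval of 3.56 to 5.48. The log2 fold change stayed between −2.18 and −2.10 whichever library was left out.

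The sestrins are stress-induced proteins that lower the activity of mTORC1, the growth-promoting kinase complex downstream of AKT. Sesn1 (ENSMUSG00000038332, chr10:41809935-41908424) had 2800.0, 3099.8 and 3499.7 normalized counts in Foxo1TKO and 5183, 4364 and 5459 in Foxo1Ctrl. All Foxo1TKO libraries lay below all Foxo1Ctrl libraries, by a small margin. Sesn1 fell by 0.67 on the log2 scale (standard error 0.16, edgeR adjusted p = 0.0175), a 1.60-fold difference. The adjusted p rose above 0.05 without Foxo1TKO replicate 2 (0.0778) and without Foxo1Ctrl replicate 1 (0.0558) or 3 (0.0662).

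Sesn3 (ENSMUSG00000032009, chr9:14275067-14333101) had 1843, 1928 and 2145 normalized counts in Foxo1TKO and 2747, 3014.5 and 3084 in Foxo1Ctrl. The counts did not overlap, and Sesn3 had a log2 fold change of −0.58 (standard error 0.14, edgeR adjusted p = 0.0189). At 1.495-fold it lay just under the 1.5-fold limit and was not called, next to Sesn1 just above that limit. Without Foxo1TKO replicate 1 or 2 or Foxo1Ctrl replicate 3 the adjusted p was 0.0583, 0.0965 or 0.0683, and in 2 of the 6 fits with a library left out the fold change passed the limit too.

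Per length, the difference in Sesn3 was not seen. GENCODE M21 lists 7 Sesn3 transcripts of 505 to 9125 bases, 3 protein coding and 3 with a retained intron. The assigned length was 3686, 4790 and 7210 bases in Foxo1TKO and 7045, 8173 and 5050 bases in Foxo1Ctrl, which varied as much within a genotype as between them. The level was 38.2, 27.4 and 18.7 TPM in Foxo1TKO and 27.3, 21.4 and 42.9 TPM in Foxo1Ctrl. The genotypes overlapped, and within each the library with the shortest assigned length had the highest level. The authors' normalized signal, which also takes length into account, was 2963, 2312 and 1675 in Foxo1TKO and 2205, 2116 and 3458 in Foxo1Ctrl, and overlapped too. With the effective lengths as offsets, the log2 fold change of Sesn3 was −0.17 (95% interval −0.79 to 0.44, edgeR adjusted p = 0.688).

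**Figure D3:**
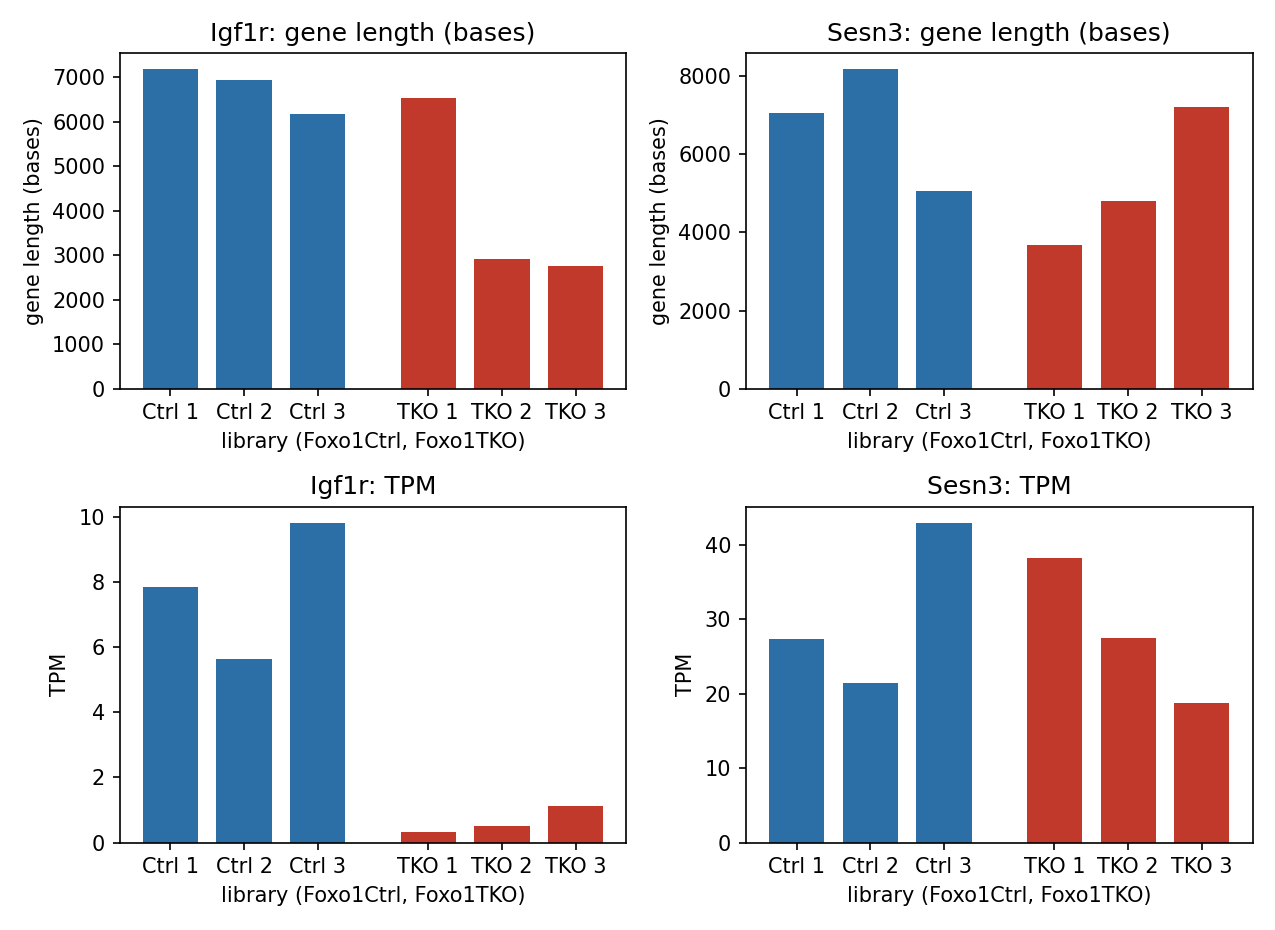
Gene length assigned by RSEM in bases (upper panels) and level in TPM (lower panels) of Igf1r (left) and Sesn3 (right), with 1 bar per library, blue for Foxo1Ctrl and red for Foxo1TKO. Igf1r levels are lower in all red bars whatever the length, while red and blue Sesn3 bars cover the same range and are tall where the assigned length is short.

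For the remaining 7 genes the length made little difference. With the offsets, the log2 fold change was −4.44 for Foxo1, −0.50 for Foxo3, −0.86 for Foxo4, −1.78 for Irs2, −2.25 for Pik3ip1, −2.07 for Inpp4b and −0.68 for Sesn1. The same 6 genes were called.

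**Figure D4:**
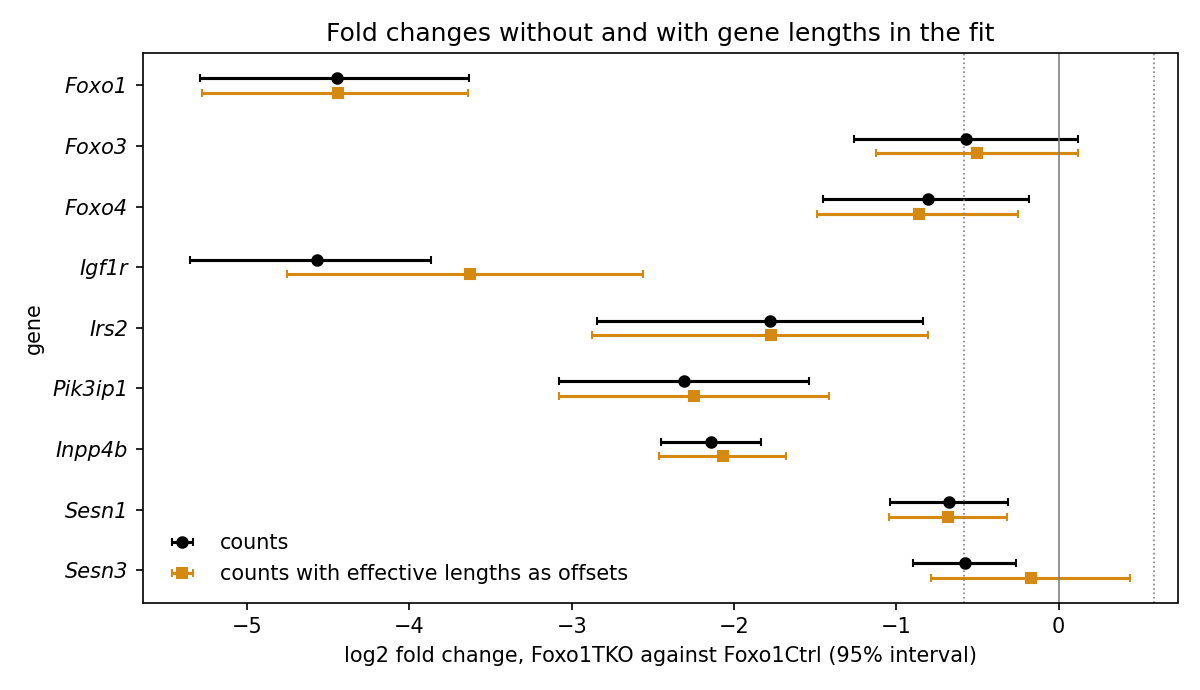
Log2 fold change of Foxo1TKO against Foxo1Ctrl with its 95% interval for each of the 9 genes, from edgeR on counts (black circles) and with effective lengths as offsets (orange squares). Dotted lines mark a 1.5-fold change in either direction. The estimates stay close for 7 genes and move toward 0 for Igf1r (−4.57 to −3.63) and Sesn3 (−0.58 to −0.17).

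Levels of the 9 genes per length spanned a wide range, and their order differed between the genotypes. In Foxo1Ctrl cells the mean level was 297 TPM for Inpp4b, 186 TPM for Pik3ip1, 133 TPM for Sesn1, 30.5 TPM for Sesn3, 13.4 TPM for Foxo1, 7.77 TPM for Igf1r, 5.05 TPM for Foxo3, 2.58 TPM for Foxo4 and 0.59 TPM for Irs2. Neighbours in this order whose libraries overlapped were Inpp4b and Pik3ip1, Pik3ip1 and Sesn1, and Igf1r and Foxo3. In Foxo1TKO cells Sesn1 came first with 84.8 TPM, followed by Inpp4b with 73.3 TPM, Pik3ip1 with 39.5 TPM, Sesn3 with 28.1 TPM, Foxo3 with 3.70 TPM, Foxo4 with 1.45 TPM, Igf1r with 0.65 TPM, Foxo1 with 0.64 TPM and Irs2 with 0.17 TPM. There the overlapping neighbours were Sesn1 and Inpp4b, Pik3ip1 and Sesn3, and Igf1r and Foxo1. Inpp4b went from a mean above that of Sesn1 to one below it, and Igf1r from above Foxo3 to below Foxo4.

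The pattern of Foxo1 over the 6 libraries was compared with that of 9234 other genes whose normalized counts averaged at least 100. Pearson's r of the log2 depth-scaled counts is given as a description, since the 6 points share the genotype split and any gene that differs sharply between the genotypes scores high. The 5 most alike genes were Tet3 (r = 0.996), Fli1 (0.996), Vipr1 (0.996), Treml2 (0.995) and Tm6sf1 (0.994). Tet3 encodes a DNA demethylation enzyme, Fli1 an ETS transcription factor and Vipr1 a receptor for vasoactive intestinal peptide. Vipr1 had 7.61, 3.51 and 9.66 normalized counts in Foxo1TKO and 228, 207 and 188 in Foxo1Ctrl. Tet3, in contrast, kept 523, 502 and 528 counts in Foxo1TKO beside 709, 743 and 701 in Foxo1Ctrl, so a high r says little of the size of a difference. Among the pathway genes, Igf1r came at rank 20 (r = 0.991), Inpp4b at 119 (0.978), Sesn3 at 210 (0.970), Sesn1 at 881 (0.908), Pik3ip1 at 997 (0.893) and Foxo3 at 2225 (0.672). Foxo4 and Irs2 were under the limit on the mean count.

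The rest of the pathway was read from lists of 112 further genes. Of those tested, 23 (22.8%) were called lower in Foxo1TKO and 13 (12.9%) higher. Without the list of other known Foxo targets, 14 of 84 tested genes were called lower (16.7%) and 11 were called higher (13.1%), beside 11.8% and 11.1% over all tested genes. Their median log2 fold change was 0.04. When Foxo1TKO replicate 2 was left out, 18 genes of all the lists were called lower and 7 higher.

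Among the catalytic subunits of class I PI3K, 1 of 4 was lower and 1 higher. Pik3cd, which encodes the leading catalytic subunit of lymphocytes, had 827, 724 and 683 normalized counts in Foxo1TKO and 2795, 1738 and 2454 in Foxo1Ctrl, and fell by 1.64 on the log2 scale (edgeR adjusted p = 0.0013). Pik3cg, the catalytic subunit coupled to G proteins, had 1161, 797 and 673 counts against 345, 232 and 328 and rose by 1.54 (adjusted p = 0.00483). The 2 catalytic genes typical of leukocytes thus went opposite ways, without overlap in either.

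Of 5 regulatory subunits, 1 was lower and 3 were higher. Pik3r5, a partner of the G protein-coupled subunit, had 74.4, 70.2 and 64.4 normalized counts in Foxo1TKO and 380, 360 and 310 in Foxo1Ctrl, and its log2 fold change was −2.31 (edgeR adjusted p = 0.000287). Pik3r3 had 512, 452 and 368 counts against 82.3, 66.3 and 97.9, with a log2 fold change of 2.42 (adjusted p = 0.000463). Pik3r1, the main regulatory subunit, was higher by 0.64 on the log2 scale (adjusted p = 0.026), a call lost without any 1 of the 3 Foxo1TKO libraries or Foxo1Ctrl replicate 3 (adjusted p = 0.0644 to 0.0753). The size of the Pik3r1 difference depended on length, with a log2 fold change of 1.08 (edgeR adjusted p = 0.00167) with the effective lengths as offsets.

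Of 13 further receptors, ligands and adaptors, 7 were tested, 2 were lower and 1 was higher. Insr, the insulin receptor and the closest relative of Igf1r, had 112, 147 and 160 normalized counts in Foxo1TKO and 364, 309 and 344 in Foxo1Ctrl. It fell by 1.27 on the log2 scale (standard error 0.22, edgeR adjusted p = 0.00465). Gab3, a docking adaptor, fell by 2.38 (adjusted p = 0.000757). Irs1, the relative of Irs2, was listed at 0 in all libraries, so Irs2 was the one of this pair with reads.

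Of 11 lipid and AKT phosphatases, 2 were lower and 0 higher. Phlpp1, a phosphatase that removes an activating phosphate from AKT, had 134, 129 and 104 normalized counts in Foxo1TKO and 2349, 1339 and 2164.5 in Foxo1Ctrl, and fell by 3.98 on the log2 scale (edgeR adjusted p = 0.000105). Inpp5f had a log2 fold change of −0.65 (adjusted p = 0.0401), a call lost whichever library was left out (adjusted p = 0.0544 to 0.11).

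Of 6 kinases at and beside AKT, 2 were lower and 0 higher. Sgk1, a relative of AKT that also phosphorylates FOXO proteins, fell by 1.77 on the log2 scale (edgeR adjusted p = 0.00501).

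In the mTOR complexes and their regulators, 2 of 16 tested genes were lower and 2 higher. Rictor, the defining subunit of the mTOR complex that activates AKT, fell by 1.05 on the log2 scale (edgeR adjusted p = 0.00294), while its partners Mapkap1 and Prr5l rose by 0.95 (adjusted p = 0.0229) and 1.80 (adjusted p = 0.00079). The Mapkap1 call was lost without any 1 of the Foxo1TKO libraries or Foxo1Ctrl replicate 1 (adjusted p = 0.0556 to 0.0824). Eif4ebp1, a translation repressor inactivated by mTORC1, fell by 0.82 (adjusted p = 0.00741, and 0.0512 without Foxo1TKO replicate 2).

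Among the partners of the sestrins and other stress regulators of mTORC1, 1 of 19 tested genes was lower and 2 were higher. Prkaa1, which encodes a catalytic subunit of AMPK, fell by 1.05 (edgeR adjusted p = 0.00187). Sec13, a member of the complex that sestrins bind, rose by 0.66 (adjusted p = 0.00993), with 0.0597 and 0.0508 when Foxo1TKO replicate 2 or Foxo1Ctrl replicate 1 was left out. Sesn2, the third sestrin, had 78.6, 34.2 and 31.1 normalized counts in Foxo1TKO and 65.6, 25.2 and 63.0 in Foxo1Ctrl. These overlapped, with a log2 fold change of −0.09 (adjusted p = 0.92) that turned positive without some of the libraries.

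Of 16 tested genes that act on FOXO proteins, 3 were lower and 2 higher. Ywhaq, a protein that holds phosphorylated FOXO factors in the cytoplasm, had 10333, 11850 and 12174 normalized counts in Foxo1TKO and 4570, 6040 and 5144 in Foxo1Ctrl, and rose by 1.12 on the log2 scale (edgeR adjusted p = 0.0023). Stk4, a kinase that phosphorylates FOXO proteins, fell by 0.86 (adjusted p = 0.00736). The acetyltransferases Crebbp and Ep300 had log2 fold changes of −0.82 (adjusted p = 0.0276) and −0.78 (adjusted p = 0.0488). The Crebbp call was lost without Foxo1TKO replicate 1 or 2 or Foxo1Ctrl replicate 1 (adjusted p = 0.0563 to 0.098). The Ep300 call was lost without Foxo1TKO replicate 2 or 3 or Foxo1Ctrl replicate 1 or 3 (adjusted p = 0.124 to 0.175). With all libraries, Ep300 also missed 0.05 in limma-voom (adjusted p = 0.0564) and in edgeR with no filter on low counts (0.0532). With the effective lengths as offsets its log2 fold change was −1.07 (edgeR adjusted p = 0.029).

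Of 17 tested genes known elsewhere as Foxo targets, 9 were lower, 2 were higher and 6 were not called, with a median log2 fold change of −1.13. Over all tested genes 11.8% were called lower and 11.1% higher. Klf2, a factor of T cell quiescence, had 5.92, 1.75 and 0 normalized counts in Foxo1TKO and 649.8, 643 and 667 in Foxo1Ctrl. At so few reads the size of its difference was uncertain, with a log2 fold change of −7.46 that was −8.37 without Foxo1TKO replicate 1 and −5.73 to −8.39 over the other fits. S1pr1, the receptor for exit from lymphoid organs, fell by 4.97 on the log2 scale, Il7r, the interleukin-7 receptor chain, by 3.49 and Bnip3, a mitochondrial autophagy protein, by 3.00 (edgeR adjusted p from 4.5e-05 to 0.000191 over these 4 genes). The differences of Igf1r (−4.57) and Foxo1 (−4.45) thus lay in size between those of Il7r and S1pr1, while those of Pik3ip1 (−2.31) and Inpp4b (−2.14) were smaller than that of Bnip3.

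**Figure D5:**
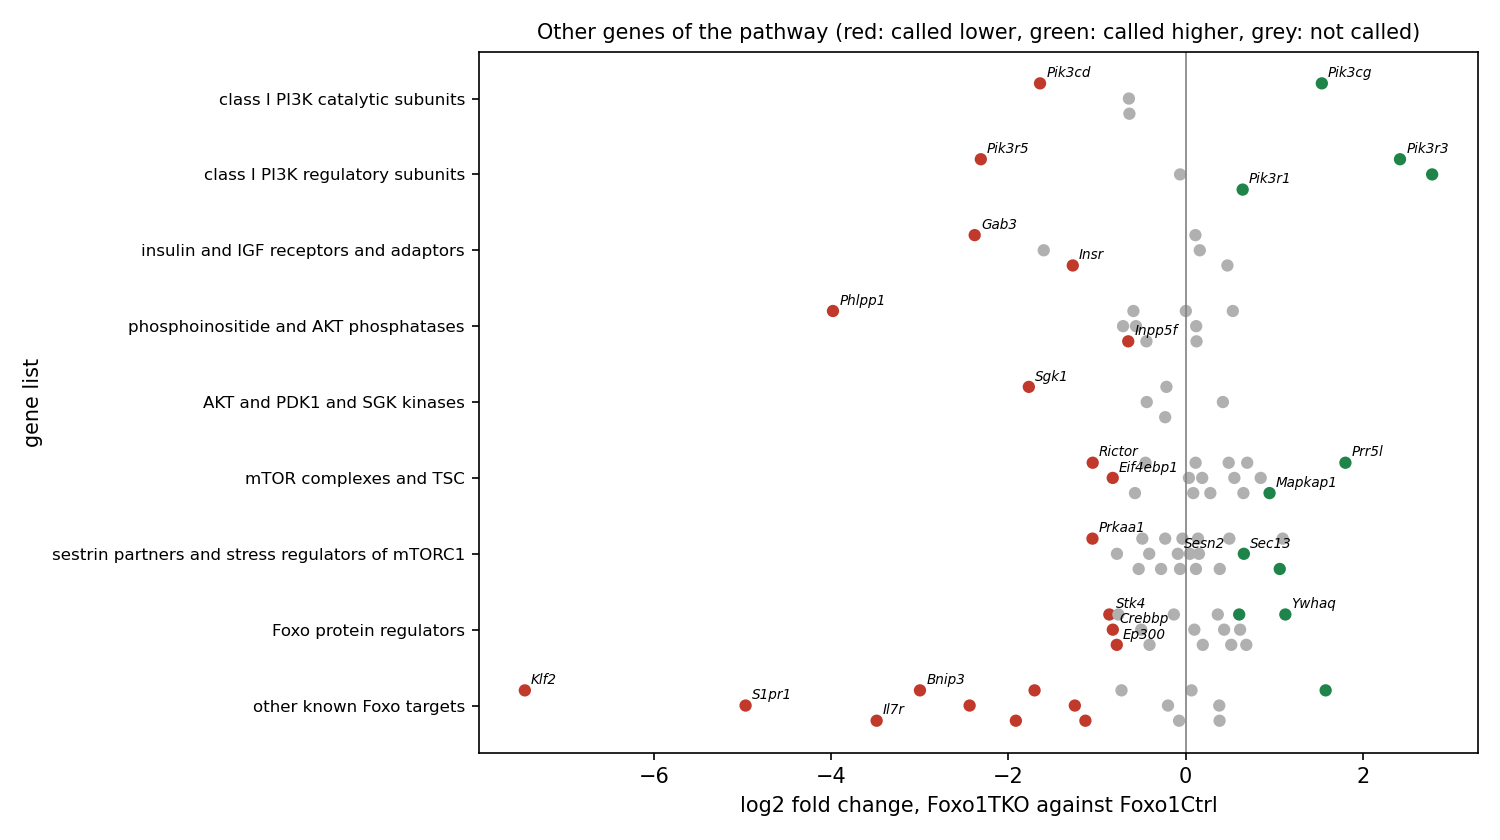
Log2 fold change of Foxo1TKO against Foxo1Ctrl for the tested genes of the 9 lists of further pathway genes, 1 point per gene, red where called lower, green where called higher and grey where not called. Grb10 and Pdk4, which had at most 1 read in any Foxo1Ctrl library, are left out, as are genes not reported here. Red and green points both occur in 6 of the 9 lists, and the lowest values are those of Klf2, S1pr1, Phlpp1 and Il7r.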

How the data were processed

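The authors aligned reads with STAR 2.7.6a to Ensembl GRCm38 and deposited RSEM 1.3.1 expected counts, TPM, gene lengths and effective lengths per gene and library. Strandedness of the counting is not given in the sources used here. The authors also deposited a normalized signal for 13564 genes. It matched the rounded counts divided by DESeq2 size factors and relative effective lengths within 1% for 100% of values above 0. FPKM were not used here.

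Expected counts were rounded. The filter of 10 counts in 3 or more libraries left 13691 genes for the test with edgeR 4.0.16 in R 4.3.3 (TMM, prior count 1, quasi-likelihood test, genotype as the only term). The p-values were adjusted over all of them by the Benjamini-Hochberg method, and calls took a 1.5-fold limit beside an adjusted p of 0.05. Standard errors are the size of the log2 fold change fitted without the prior count over the square root of the F statistic. The 95% intervals are centred on that value, so the printed log2 fold change can lie off their middle. Exact permutations of 3 against 3 libraries cannot give a two-sided p under 0.1 and were not used. The tests were checked on simulated counts. DESeq2 1.42.0 and limma 3.58.1 served as alternatives. Gene positions are from GENCODE M21, which holds 55227 of the 55487 gene identifiers, and promoter sequences from RefSeq on GRCm38.p6. Pathway genes were named if called, if the genotypes did not overlap and if normalized counts averaged 100 or more, up to 4 per list by size of change. Foxo6, Insr, Irs1, Sesn2, Pik3cd and Pik3r1 were always named, as were the 5 genes most correlated with Foxo1. Some genes of the lists are not reported here. The members and all lists were chosen with earlier results of these data known. A fold against a genotype with at most 3 counts in every library is a bound against 3 counts per library and covers counting error only. Figures were drawn with matplotlib.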

Additional observations from a re-analysis of the deposited data

How the results depend on the processing

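The fold changes of the 9 genes were recomputed under 10 alternatives besides leaving out single libraries, and kept their sign in all of them. The adjusted p of Foxo4 was under 0.05 with DESeq2 (log2 fold change −0.81, adjusted p = 0.0339) and with limma on the authors' table at a pseudocount of 10 (−0.75, adjusted p = 0.0483). That of Sesn3 rose above it with limma on that table at a pseudocount of 1 (−0.16, adjusted p = 0.698) or 10 (−0.16, adjusted p = 0.693) and with the effective lengths as offsets (−0.17, adjusted p = 0.688), an alternative chosen after seeing the data. These 3 share the effective length of each library. With libraries left out singly, the log2 fold change ran from −2.06 to −1.56 for Irs2, from −0.76 to −0.61 for Sesn1 and from −0.64 to −0.55 for Sesn3, with the adjusted p rising above 0.05 in 4, 3 and 3 of 6 fits. Sesn2 ran from −0.64 without Foxo1TKO replicate 1 to 0.14, and was −0.39 without Foxo1Ctrl replicate 2. It turned positive at 0.12 and 0.14 without Foxo1TKO replicate 2 and 3 and at 0.12 and 0.09 without Foxo1Ctrl replicate 1 and 3. The number of the 9 genes called lower ran from 4 to 6 in these fits. It was 7 with upper quartile scaling, which added Sesn3 (−0.59, adjusted p = 0.0212), and with DESeq2 or limma at a pseudocount of 10, which added Foxo4. In the fits with a library left out, 980 to 1620 of all genes were called lower and 874 to 1701 higher. Both were lowest without Foxo1TKO replicate 2, and 942 were higher without Foxo1Ctrl replicate 1. Of the pathway lists, 18 to 26 genes were called lower and 7 to 17 higher. Such fits have fewer libraries. Same-numbered libraries did not deviate together in every pair (r = 0.43, 0.20 and −0.11). With 3 libraries per genotype this cannot decide whether the numbers mark pairs, and the labels do not say so. The paper used paired tests by experiment for its flow cytometry of such cultures. With the number as a replicate block, 1661 genes were called lower and 1657 higher, 6 of the 9 genes were lower, the log2 fold change of Foxo1 was −4.47 and that of Igf1r −4.61, and no call among the 9 was lost. Reads limit Irs2 most, at 12 to 65 expected counts per library.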

Other observations

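Pdk4 and Grb10, called higher among the pathway lists, fell outside the rule for named genes and were picked after their values were seen. Pdk4 encodes a kinase that restrains pyruvate dehydrogenase and is known in muscle and liver as a Foxo target. It had 229, 132 and 150 normalized counts in Foxo1TKO and 0, 0 and 0.97 in Foxo1Ctrl, at least 51.6-fold higher in Foxo1TKO against a floor of 3 counts per library, the opposite direction to the 9 lower genes of its list. Grb10, an adaptor that inhibits insulin and IGF receptors, had 14.4, 13.2 and 21.5 counts against 0, 1.14 and 0, at least 4.94-fold higher by the same floor.

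Igf1r and Sesn3 were not alone in having an assigned length that moved. Of 13691 tested genes, 826 (6.03%) had a mean RSEM length that differed by over 1.2-fold between the genotypes.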
